A study of Mus musculus with 11 samples.

Results

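The 76 genes described here encode the proteins of the cytosolic ribosome in mouse bone marrow cells carrying mutant CSF3R alone or with mutant CEBPA. They were chosen by name and not by their changes, though with earlier results of these data known. The rule took every protein-coding gene whose symbol is Rps or Rpl with a number and an optional a, x or y, together with Rpsa, Rplp0, Rplp1 and Rplp2, and with a mean of 10 or more counts over the 11 samples. Of 51912 genes in the count table, 76 qualified, 30 for the small (40S) and 46 for the large (60S) subunit. No gene that matched by name was lost to the count minimum, and all 76 were among the 15703 genes tested. They lie on 19 chromosomes.

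A ribosome is built from ribosomal RNA and 1 copy of most of these proteins, so cells make the proteins in matched amounts and destroy what is not assembled. Their mRNAs begin with a short pyrimidine stretch (a TOP motif) through which the kinase mTOR, acting with the binding protein Larp1, controls their translation, while RNA polymerase I and Myc set much of the supply of ribosomal RNA and assembly factors. Blood formation is sensitive to this balance. Loss of 1 copy of a ribosomal protein gene underlies Diamond-Blackfan anemia, low Rps14 underlies the anemia of the 5q- syndrome, and free Rpl5 and Rpl11 bind Mdm2 and thereby stabilise p53. Growing progenitors make many ribosomes, and granulocytes make few as they mature.

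The study asked whether the order in which the mutations are acquired matters. Marrow of C57BL/6 mice carrying a tamoxifen-activated Cre at Rosa26 was transduced with a constitutive retrovirus marked by GFP and a Cre-inducible retrovirus marked by a red protein. In CSF3R-only (n = 4), the control, the constitutive vector carried human CSF3R T618I and the inducible vector was empty. In CSF3R-first (n = 3), the constitutive vector carried CSF3R T618I and the inducible one human CEBPA V314VW, and in CEBPA-first (n = 4) the same alleles were exchanged between the vectors. The marrow donors were female and 6 to 12 weeks old. All groups therefore express mutant CSF3R at the end, all were sorted as lineage-negative cells positive for both colours, and all were cultured without cytokines for 48 h with 4-hydroxytamoxifen before bulk RNA-seq. Both proteins were expressed from viral promoters rather than their own genes. The labels do not say whether the lettered replicates came from separate animals or cultures, so p-values measure the spread between these samples.

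Libraries held 47905747 to 72268346 counts. The cells carried markers of progenitors, granulocytes and other myeloid cells, and these moved with the groups. Levels are given as CPM, counts scaled by TMM to a common library size. Summed over 20 neutrophil maturation genes, CSF3R-only samples lay between 30538 and 38014 CPM, CSF3R-first samples between 16286 and 28577 and CEBPA-first samples between 6928 and 9148. Summed over 16 genes of dividing cells, the samples of these groups lay between 2964 and 3583, 4466 and 5269.5, and 5760.3 and 6452 CPM. No gene of either list was at 0 in all samples. B cell markers summed to at most 7.53 and T and NK cell markers to at most 136 CPM in any sample, and 3 of the 9 genes of the second list had no count. In bulk RNA, fewer cells of a type and less RNA per cell cannot be told apart, so every level below is an average over whatever cells each sample held.

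Most ribosomal protein genes have processed copies elsewhere in the genome, and how the authors counted reads that match several places is not given in the sources used here. Of the 76 genes, 71 share at least 1 stretch of 100 bases of their main transcript with another annotated gene, and the median gene shares 42.1% of such stretches. Levels of genes with much shared sequence are therefore uncertain. Rows named as ribosomal protein pseudogenes held only 0.00307% to 0.00966% of a sample's counts.

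Ribosomal protein genes took up a larger part of the RNA in both groups with mutant CEBPA than in CSF3R-only. The 76 genes held 0.934, 1.19, 1.17 and 1.03% of all counts in CSF3R-only replicates A to D, 1.33, 1.499 and 1.55% in CSF3R-first replicates A to C, and 1.63, 1.58, 1.65 and 1.83% in CEBPA-first replicates A to D. The group means were 1.08% ± 0.120 (SD, n = 4), 1.46% ± 0.113 (SD, n = 3) and 1.67% ± 0.107 (SD, n = 4). No sample of one group reached into the range of another. This share needs no scaling between libraries. None of the 76 genes was among the 10 most counted genes of any sample, and leaving out those 10 genes gave 1.16% ± 0.126 (SD, n = 4), 1.55% ± 0.106 (SD, n = 3) and 1.75% ± 0.108 (SD, n = 4).

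**Figure D1:**
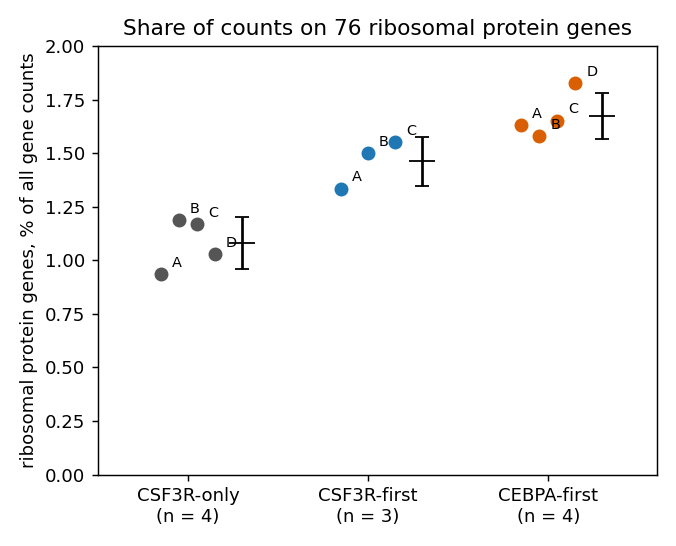
Share of all gene counts that fell on the 76 ribosomal protein genes (vertical axis, percent, from 0) in each sample, by group on the horizontal axis, with replicate letters beside the points and the mean ± SD as a bar. The 4 CSF3R-only samples lie between 0.934% and 1.19%, below all CSF3R-first samples, which lie below all CEBPA-first samples.

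Within a sample the genes covered a wide range. Per length (mean CPM over the 11 samples per kilobase of the main transcript), the highest were Rplp0, the base of the large subunit's stalk, at 693, Rps9, a small subunit protein that helps keep decoding accurate, at 595, and Rpl4, which lines the exit tunnel, at 569 CPM per kilobase. The lowest were Rpl24 at 0.361, Rpl23a at 2.58 and Rpl13a at 11.9 CPM per kilobase. Rpl24 averaged only 13.8 counts a sample, and 80.1% of its 100-base stretches occur in other genes' transcripts, among them the processed pseudogene Gm9385, whose row averaged 114 counts. For Rpl23a the shared part was 80.0% and for Rpl13a 55.2%. Rpl23a averaged 82.9 and Rpl13a 721 counts a sample, and for all 3 genes it is uncertain where the reads of shared stretches were assigned.

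The first comparison asked how the cells that received mutant CEBPA first differed from those with mutant CSF3R alone. In CEBPA-first, 72 of the 76 genes were higher than in CSF3R-only and none was lower by edgeR's quasi-likelihood test (adjusted p under 0.05). Of all 15703 genes tested, 35.4% were called higher and 36.6% lower in this comparison. The changes were even and moderate. The median log2 fold change over the 76 genes was 0.56, a 1.47-fold difference, against a median of 0.00 over all genes tested, and the single genes ranged from 0.03 to 0.89. None passed a log2 fold change of 1, which 8.07% of all genes did upwards here, 2.13% in the second comparison and 2.57% in the third, where again none of the 76 did. The count was 72 with each sample left out in turn. In 72 genes the lowest CEBPA-first sample was higher than the highest CSF3R-only sample, which held for 34.2% of all genes. The genes of dividing cells rose beside them, 16 of 16, and the neutrophil genes fell, 20 of 20, and the part of either in the ribosomal protein result was not tested.

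Rpl12, a large subunit protein at the foot of the stalk where translation factors bind, changed most. It lies at chr2:32961559-32965345 (mm10, GENCODE annotation of GRCm38) and was at 78.9, 107, 103 and 91.1 CPM in CSF3R-only, 129.8, 154 and 154 CPM in CSF3R-first and 170.4, 172, 171 and 190.2 CPM in CEBPA-first, with each sample's values in the order of the replicate letters. The groups did not overlap (log2 fold change 0.89 ± 0.09 (SE), edgeR adjusted p = 2.24e-06, a 1.85-fold rise). Rpl5, which carries the 5S ribosomal RNA into the large subunit, lies at chr5:107900502-107909005 and was at 105, 149, 137 and 118 CPM in CSF3R-only, 163, 193 and 176 CPM in CSF3R-first and 222, 226, 217 and 243 CPM in CEBPA-first. Its CEBPA-first samples were all above the highest CSF3R-only sample (log2 fold change 0.84 ± 0.10 (SE), edgeR adjusted p = 5.77e-06).

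Rpl13a, a large subunit protein that also leaves the ribosome to silence inflammatory mRNAs, rose on a much lower level, from 7.78, 8.73, 9.84 and 9.23 CPM in CSF3R-only to 16.3, 14.95, 14.9 and 18.1 CPM in CEBPA-first (log2 fold change 0.85 ± 0.09 (SE), edgeR adjusted p = 3.09e-06). Rpl23a, where nascent chains leave the ribosome, was at 1.02, 1.16, 0.968 and 0.887 CPM and 1.69, 1.69, 1.80 and 1.84 CPM in these groups, and its standard error was wider (log2 fold change 0.80 ± 0.18 (SE), edgeR adjusted p = 0.00124) at a mean of 82.9 counts. Both are among the genes with much shared sequence.

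The exceptions were few. Rps9, at chr7:3703993-3706897, was at 399, 469, 431 and 409 CPM in CSF3R-only, 482, 433 and 481 CPM in CSF3R-first and 456, 436, 449 and 471 CPM in CEBPA-first. Its ranges overlapped, and the difference of CEBPA-first from CSF3R-only was within the spread between samples (log2 fold change 0.09 ± 0.07 (SE), edgeR adjusted p = 0.266). Rps27, a small subunit protein with a zinc finger, lies at chr3:90212522-90213651 and was at 72.6, 79.9, 81.8 and 74.1 CPM in CSF3R-only, 84.3, 73.3 and 86.3 CPM in CSF3R-first and 80.6, 75.5, 80.2 and 87.0 CPM in CEBPA-first (log2 fold change 0.07 ± 0.07 (SE), edgeR adjusted p = 0.385). Its transcript is almost entirely shared, 98.4%, with the retrogene Rps27rt. Rpl24, at 0.259, 0.300, 0.262 and 0.143 CPM in CSF3R-only and 0.257, 0.136, 0.269 and 0.306 CPM in CEBPA-first, was too low for a change of the median size to be detectable (log2 fold change 0.03 ± 0.35 (SE), edgeR adjusted p = 0.94). Among the genes that did rise, Rps19, the gene most often mutated in Diamond-Blackfan anemia, changed least. It was at 128, 149, 140.1 and 129 CPM in CSF3R-only, 156, 151 and 168 CPM in CSF3R-first and 156, 150.4, 157 and 169.9 CPM in CEBPA-first (log2 fold change 0.21 ± 0.07 (SE), edgeR adjusted p = 0.0104). Rps9 and Rps27 averaged 25209 and 4498 counts a sample, and their standard errors were like those of the genes that rose.

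**Figure D2:**
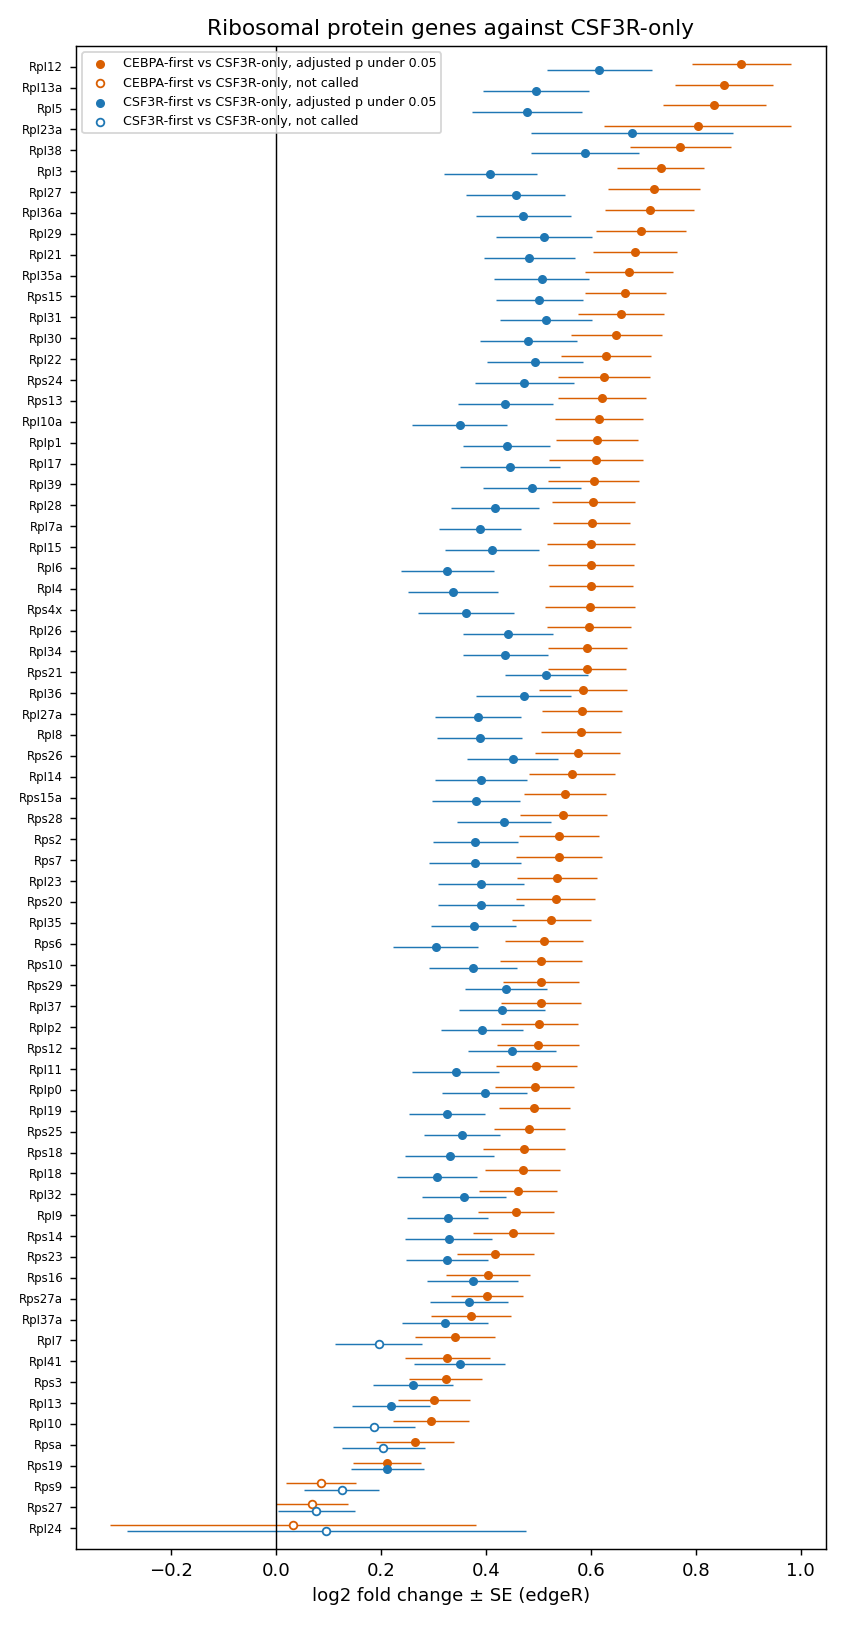
Log2 fold change ± SE (horizontal axis, edgeR) of 71 of the ribosomal protein genes (vertical axis, ordered by the first comparison) in CEBPA-first against CSF3R-only and in CSF3R-first against CSF3R-only, which share the CSF3R-only samples. Filled points are called at an adjusted p under 0.05, and all points lie to the right of 0.

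The promoters of these genes were compared, since most of the genes rose together. RefSeq start sites on GRCm38.p6 were matched for 56 of the 76 genes, with 66 windows from 250 bases before to 50 after a start. Windows around the start, from 50 bases before to 25 after it, are shown for Rpl12, Rpl13a, Rpl5 and Rpl4, which were called in all 3 comparisons (in CEBPA-first against CSF3R-first only Rpl13a of the 4 under every alternative run), and for Rps9 and Rps27, which were called in none. Capitals mark the letters CTTTTC, the related fragment CTTTCC and the shorter fragment TCTTT on the gene's strand, letters of the kind found in TOP motifs. The first 50 bases of each window lie before the start used here, so letters marked there are not part of the mRNA that begins at it.
Rpl12 (chr2:32961662-32961736, plus strand): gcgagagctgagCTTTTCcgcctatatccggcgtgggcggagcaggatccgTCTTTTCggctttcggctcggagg
Rpl13a (chr7:45128721-45128795, minus strand): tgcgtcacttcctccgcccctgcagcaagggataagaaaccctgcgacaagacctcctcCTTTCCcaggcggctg
Rpl5 (chr5:107900478-107900552, plus strand): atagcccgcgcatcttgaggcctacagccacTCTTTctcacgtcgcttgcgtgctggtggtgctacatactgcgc
Rpl4 (chr9:64173337-64173411, plus strand): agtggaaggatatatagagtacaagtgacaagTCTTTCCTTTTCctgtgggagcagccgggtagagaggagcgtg
Rps9 (chr7:3703991-3704065, plus strand): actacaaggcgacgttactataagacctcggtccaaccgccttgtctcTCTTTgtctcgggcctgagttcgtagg
Rps27 (chr3:90213624-90213698, minus strand): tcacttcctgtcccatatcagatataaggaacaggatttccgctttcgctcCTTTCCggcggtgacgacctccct

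All 6 windows held such a fragment, those of the genes that were not called included. Within 20 bases of the start on the gene's strand, at least 1 of the 3 fragments, which can overlap each other, occurred in 20 of 66 windows (30.3%) and in 7.07% of all 32851 promoter windows. A run of 7 or more pyrimidines reaching within 5 bases of the start occurred in 39.4% and 13.5%. Over the whole windows and on either strand, CGGAAG, a core bound by ETS factors, occurred in 62.1% against 16.9%, and the shorter GGAAG, which it contains, in 92.4% against 71.4%. GGGCGG, read by Sp1, occurred in 60.6% against 35.7%, AAGATGGC, read by YY1, in 10.6% against 2.75%, the E-box CACGTG of Myc in 12.1% against 7.15%, and TATAAA in 9.09% against 13.6%. The palindrome TTGCGCAA of C/EBP factors was in none of the 66 windows and in 0.183% of all windows, and the looser TTGCNNAA in 6.06% against 10.8%. These are matches of letters and were not tested.

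Both subunits took part. In CEBPA-first against CSF3R-only, 28 of 30 small subunit genes rose with a median log2 fold change of 0.52, and 44 of 46 large subunit genes with a median of 0.60. The mean log2 CPM of small minus that of large subunit genes was 0.56, 0.54, 0.55 and 0.56 in the CSF3R-only samples, 0.56, 0.50 and 0.52 in CSF3R-first and 0.48, 0.48, 0.48 and 0.48 in CEBPA-first. Over all 76 genes this difference was smaller in every CEBPA-first sample than in every other sample. Over the 6 small and 5 large subunit genes with under 10% shared sequence it was -0.334 ± 0.0229 (SD, n = 4) for CSF3R-only, -0.344 ± 0.0410 (n = 3) for CSF3R-first and -0.375 ± 0.0301 (n = 4) for CEBPA-first, and the groups overlapped. Neither was tested.

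The second comparison asked what mutant CEBPA added when it came after mutant CSF3R. In CSF3R-first, 69 of 76 genes were higher than in CSF3R-only and none was lower (edgeR adjusted p under 0.05), in a comparison that shares its CSF3R-only samples with the first, against 21.6% of all genes called higher and 21.1% lower. The median log2 fold change was 0.39, or 1.31-fold, with single genes from 0.08 to 0.68, and the median over all genes tested was -0.02. In 70 genes the lowest CSF3R-first sample exceeded the highest CSF3R-only sample, as in 20.7% of all genes. Leaving out each sample in turn gave 66 to 73 genes. Here too the genes of dividing cells rose, 16 of 16, and the neutrophil genes fell, 19 of 20, and their part was not tested.

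Rpl23a differed most between CSF3R-first and CSF3R-only, with 1.26, 1.45 and 2.10 CPM in CSF3R-first (log2 fold change 0.68 ± 0.19 (SE), edgeR adjusted p = 0.0132). It rested on the highest sample, since without CSF3R-first replicate C the log2 fold change was 0.45 with an adjusted p of 0.0794. Rpl12 followed (log2 fold change 0.62 ± 0.10 (SE), edgeR adjusted p = 0.000563), then Rpl38, a small large-subunit protein whose loss in mice alters the translation of Hox mRNAs. Rpl38 was at 24.97, 30.4, 32.0 and 27.9 CPM in CSF3R-only, 37.9, 43.5 and 48.7 CPM in CSF3R-first and 46.7, 47.0, 47.6 and 55.3 CPM in CEBPA-first (log2 fold change 0.59 ± 0.10 (SE), edgeR adjusted p = 0.000857). Rps21, a small subunit protein, was also among the 5 largest (log2 fold change 0.52 ± 0.08 (SE), edgeR adjusted p = 0.000404). Rps21 shares no 100-base stretch with another gene, and was at 35.7, 38.5, 40.9 and 38.0 CPM in CSF3R-only, 50.3, 54.0 and 59.7 CPM in CSF3R-first and 55.4, 54.1, 56.6 and 64.5 CPM in CEBPA-first.

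Of the 7 genes not called in this comparison, 4 were those not called in CEBPA-first. The other 3 were Rpsa, the small subunit protein also known as the laminin receptor, Rpl10, which joins the large subunit last, and Rpl7. Rpsa was at 360.0, 453, 431 and 379 CPM in CSF3R-only, 459.7, 457 and 485 CPM in CSF3R-first and 487, 469, 492 and 501 CPM in CEBPA-first (log2 fold change 0.20 ± 0.08 (SE), edgeR adjusted p = 0.0546), so all 3 CSF3R-first samples were above all 4 CSF3R-only samples while the test did not call it. Without CSF3R-only replicate B its adjusted p was 0.0166. Over the 21 alternatives run it reached 0.142, and 4 of them called Rpsa. Rpl10 was at 260.5, 330.1, 291 and 266 CPM in CSF3R-only, 332, 322 and 325 CPM in CSF3R-first and 363, 345, 352 and 348 CPM in CEBPA-first (log2 fold change 0.19 ± 0.08 (SE), edgeR adjusted p = 0.0702), and without CSF3R-only replicate B its adjusted p was 0.00659. It reached 0.176 over the 21 alternatives, and 2 of them called Rpl10. Rpl7 gave log2 fold change 0.20 ± 0.08 (SE), edgeR adjusted p = 0.0728. The call of Rps19 (log2 fold change 0.21 ± 0.07 (SE), edgeR adjusted p = 0.0274) was lost without CSF3R-only replicate A or D or CSF3R-first replicate C, with adjusted p-values of 0.0724, 0.0794 and 0.079.

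**Figure D3:**
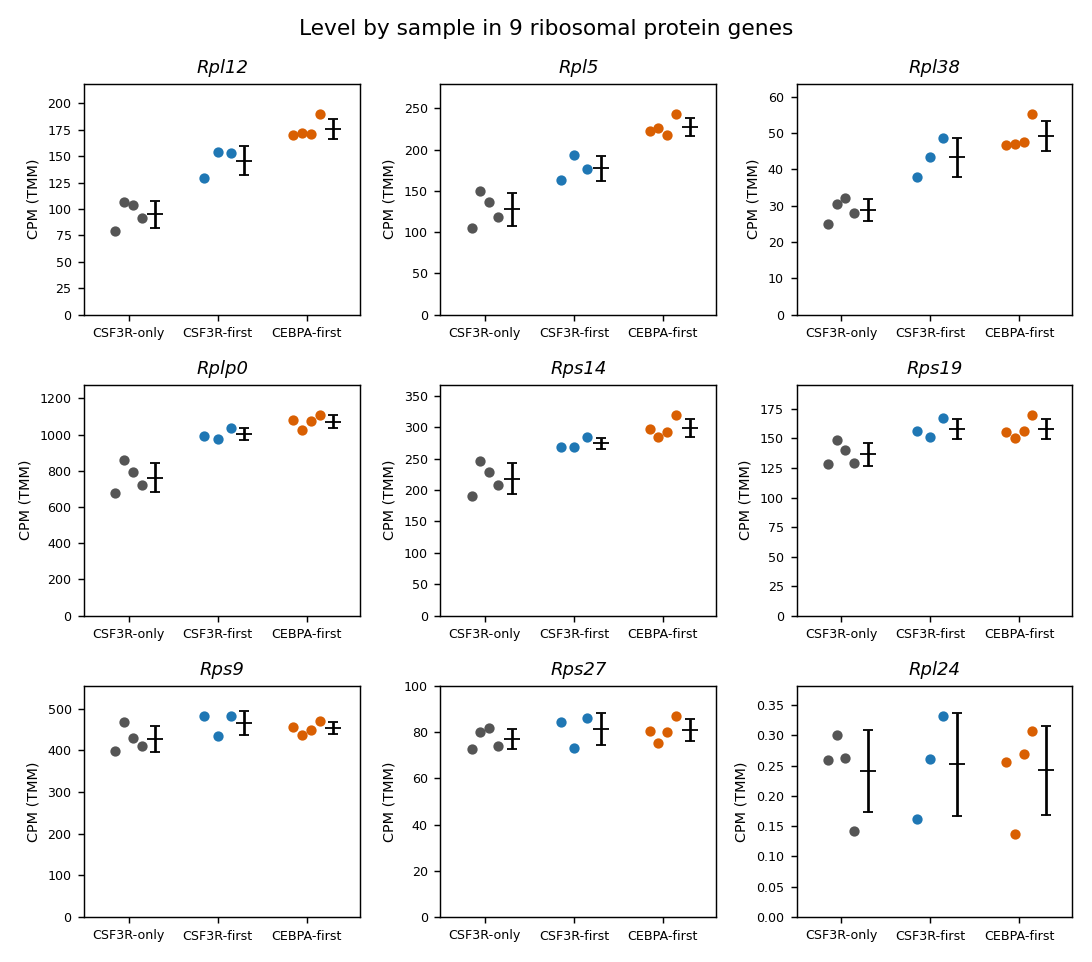
Level in CPM scaled by TMM (vertical axis, from 0) of 9 ribosomal protein genes in every sample of the 3 groups (horizontal axis), with the mean ± SD beside the points. Rpl12, Rpl5 and Rpl38 are among the largest changes. In CEBPA-first against CSF3R-only, Rplp0 and Rps14 changed by less than the median, Rps19 changed least of the genes called, and Rps9, Rps27 and Rpl24 were not called.

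The third comparison set the orders of acquisition against each other, with the same alleles present at the end. CEBPA-first was higher than CSF3R-first in 11 of the 76 genes and lower in none, where 24% of all genes were called higher, so the share of ribosomal protein genes called was below that of all genes. The median log2 fold change was 0.15 and the range -0.06 to 0.36. The direction was positive in 70 genes, and the samples of the groups did not overlap in 46, against 27.4% of all genes. The genes of dividing cells were higher in 13 of 16 and the neutrophil genes lower in 19 of 20, and their part was not tested. The count of 11 depended on single libraries. It was 21 without CSF3R-only replicate A, 6, 6, 7 and 5 without CEBPA-first replicates A to D, and 2 and 5 without CSF3R-first replicates A and C.

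In this comparison the median log2 fold change was 0.16 over the 46 large and 0.13 over the 30 small subunit genes. All CEBPA-first samples lay above all CSF3R-first samples in 31 of the 46 and 15 of the 30. Whether the subunits differed was not tested. Of the 11 genes called, 10 belong to the large subunit. They were Rpl13a (log2 fold change 0.36), Rpl5 (0.36), Rpl3 (0.32), Rpl6 (0.27), Rpl12 (0.27), Rpl10a (0.27), Rpl27 (0.26), Rpl4 (0.26), Rpl36a (0.24) and Rpl7a (0.21), with edgeR adjusted p-values of 0.0102 to 0.0434. The small subunit gene was Rps4x (0.24, edgeR adjusted p = 0.0497), just under the threshold. Under the 21 alternatives run, Rpl3 and Rpl13a were called in each. The call was lost in 1 for Rpl5, 2 for Rpl6, 3 for Rpl4 and for Rpl10a, 4 for Rpl27, 7 for Rpl7a, 9 for Rpl12, 10 for Rpl36a and 11 for Rps4x, with adjusted p-values of up to 0.153 (Rpl12). The 21 did not include the restriction to genes with under 10% shared sequence, which of the 11 genes only Rpl4 met. Shared stretches made up 79.4% for Rpl3 and 55.2% for Rpl13a, so their levels remain uncertain. Rpl3, which helps form the peptidyl transferase centre, was at 303, 402, 391 and 341 CPM in CSF3R-only, 453, 497 and 480.2 CPM in CSF3R-first and 595, 588, 597 and 609 CPM in CEBPA-first (log2 fold change 0.32 ± 0.09 (SE), edgeR adjusted p = 0.0102). Rpl6, a surface protein of the large subunit, was at 171, 231, 212 and 190.3 CPM in CSF3R-only, 245, 266 and 246 CPM in CSF3R-first and 309, 304, 295 and 311 CPM in CEBPA-first (log2 fold change 0.27 ± 0.09 (SE), edgeR adjusted p = 0.0222). Rpl4 was at 603, 787, 726 and 663 CPM in CSF3R-only, 828, 920.2 and 884 CPM in CSF3R-first and 1061, 1076, 1034 and 1043 CPM in CEBPA-first (log2 fold change 0.26 ± 0.09 (SE), edgeR adjusted p = 0.0236), and only 5.14% of its stretches are shared with other genes. In each of these 3 genes the 4 CEBPA-first samples were above all other samples. At the other end were Rpl24 (-0.06), Rps9 (-0.04), Rpl41 (-0.02), Rps27 (-0.01) and Rps19 (-0.000996), none of which was called. With libraries scaled by size alone, the values of these genes except Rpl24 turned positive.

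The stalk proteins recruit elongation factors to the large subunit. Rplp0 was at 678, 858, 791 and 720.2 CPM in CSF3R-only, 994, 979 and 1038 CPM in CSF3R-first and 1081, 1025, 1073 and 1109 CPM in CEBPA-first (log2 fold change 0.49 ± 0.08 (SE), edgeR adjusted p = 5.9e-05 in CEBPA-first, and log2 fold change 0.40 ± 0.08 (SE), edgeR adjusted p = 0.00216 in CSF3R-first, each against CSF3R-only). Rplp1 and Rplp2, which attach to it as dimers, rose by log2 fold changes of 0.61 and 0.50 in CEBPA-first and 0.44 and 0.39 in CSF3R-first, and all 6 changes were called. All 3 were without overlap against CSF3R-only. Rps27a, made as a fusion with ubiquitin, was at 170.4, 210.2, 195 and 175 CPM in CSF3R-only, 237, 243 and 245 CPM in CSF3R-first and 247, 239.6, 244 and 261 CPM in CEBPA-first. It rose by 0.40 in CEBPA-first and 0.37 in CSF3R-first, and CEBPA-first and CSF3R-first overlapped (log2 fold change 0.03 ± 0.07 (SE), edgeR adjusted p = 0.735).

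Genes mutated in Diamond-Blackfan anemia are 22 of the 76. In CEBPA-first 21 of the 22 rose and in CSF3R-first 21, with median log2 fold changes of 0.56 and 0.42, beside 0.56 and 0.39 over all 76. Rps27 was the one not called in both. Besides Rpl5, large changes in CEBPA-first were in Rpl27 (0.72), Rpl35a (0.67) and Rpl31 (0.66). Rpl35a, a large subunit protein, was at 41.1, 53.1, 49.7 and 44.3 CPM in CSF3R-only, 61.2, 69.6 and 69.8 CPM in CSF3R-first and 71.1, 72.9, 73.5 and 82.5 CPM in CEBPA-first. It had no overlap between CSF3R-only and either other group. Rps24, Rps26, Rps10, Rps7, Rps28, Rps29, Rps15a, Rpl8, Rpl9, Rpl11, Rpl15, Rpl17, Rpl18, Rpl26 and Rpl35 rose in CEBPA-first by log2 fold changes of 0.46 (Rpl9) to 0.62 (Rps24). Of 13 erythroid markers, 11 fell in CEBPA-first and 1, the transferrin receptor Tfrc, rose by 0.74, while none was called in CSF3R-first.

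Proteins reported to bind Mdm2 when free of the ribosome are 8 of the 76, and all 8 rose against CSF3R-only in both groups, by medians of 0.52 and 0.37. Rpl11, the partner of Rpl5 in the 5S particle, was at 102, 133, 123 and 110.1 CPM in CSF3R-only, 145, 151 and 149 CPM in CSF3R-first and 164, 158, 162 and 177 CPM in CEBPA-first (log2 fold change 0.50 ± 0.08 (SE), edgeR adjusted p = 6.76e-05 in CEBPA-first). Rpl5 rose by 0.84 in the same comparison and was called in CEBPA-first against CSF3R-first (log2 fold change 0.36 ± 0.11 (SE), edgeR adjusted p = 0.0145), where Rpl11 was not (log2 fold change 0.15 ± 0.08 (SE), edgeR adjusted p = 0.146). The difference between these partners was not tested. Much of the Rpl5 transcript is shared with other genes, 91.1% of its stretches, including 43.9% with Fam69a, which overlaps it on the other strand, so that without strand the reads of both cannot be told apart, while Rpl11 shares 59.7%. Rps14 was at 190.0, 246, 229 and 208 CPM in CSF3R-only, 268, 269 and 285 CPM in CSF3R-first and 297, 285, 292 and 319 CPM in CEBPA-first (log2 fold change 0.45 ± 0.08 (SE), edgeR adjusted p = 0.000148 in CEBPA-first). Rps3, Rps7, Rpl23 and Rpl26 changed by 0.32, 0.54, 0.54 and 0.60.

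Rps6, the target of the S6 kinases, was at 178, 231, 204 and 189 CPM in CSF3R-only, 241, 254 and 248 CPM in CSF3R-first and 295, 279, 277 and 293 CPM in CEBPA-first. CSF3R-only lay lowest and the groups did not overlap (log2 fold change 0.51 ± 0.07 (SE), edgeR adjusted p = 4.03e-05 in CEBPA-first, log2 fold change 0.30 ± 0.08 (SE), edgeR adjusted p = 0.00914 in CSF3R-first). Rpl22, a large subunit protein lost in some T cell leukemias, shares no stretch with another gene and was at 43.2, 54.7, 57.0 and 49.4 CPM in CSF3R-only, 65.0, 73.7 and 77.2 CPM in CSF3R-first and 77.6, 78.2, 75.7 and 84.4 CPM in CEBPA-first (log2 fold change 0.63 ± 0.09 (SE), edgeR adjusted p = 2.02e-05 in CEBPA-first). Rpl22l1, its paralog, is outside the naming rule and rose in the same direction, from 11.8 ± 1.67 (SD, n = 4) to 19.3 ± 1.89 CPM (n = 4), with log2 fold change 0.71 ± 0.10 (SE), edgeR adjusted p = 4.28e-05. Rpl41, the smallest ribosomal protein, was the called gene at which CSF3R-first stood farthest towards and past CEBPA-first, at 117, 141, 140.3 and 125 CPM in CSF3R-only, 163, 156 and 182 CPM in CSF3R-first and 159.9, 151, 163 and 183 CPM in CEBPA-first.

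Further genes behaved like these. The small subunit genes Rps2, Rps12, Rps13, Rps15, Rps18, Rps20, Rps23 and Rps25 rose by log2 fold changes of 0.42 (Rps23) to 0.67 (Rps15) in CEBPA-first and 0.33 (Rps23) to 0.50 (Rps15) in CSF3R-first against CSF3R-only. The large subunit genes Rpl13, Rpl14, Rpl19, Rpl21, Rpl27a, Rpl28, Rpl29, Rpl30, Rpl32, Rpl34, Rpl36, Rpl37, Rpl37a and Rpl39 rose by 0.30 (Rpl13) to 0.70 (Rpl29) and 0.22 (Rpl13) to 0.51 (Rpl29). All 22 were called in both comparisons and none in CEBPA-first against CSF3R-first. The call of Rpl13 in CSF3R-first (log2 fold change 0.22 ± 0.07 (SE), edgeR adjusted p = 0.0302) was lost without CSF3R-only replicate A or D or CSF3R-first replicate C and with only the compared groups in the fit, with edgeR adjusted p-values of 0.0804, 0.0877, 0.0658 and 0.0659.

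Other ribosomal proteins have symbols the rule does not match. Rack1, a scaffold on the small subunit head, rose from 360.5 ± 46.1 CPM in CSF3R-only (SD, n = 4) through 481 ± 41.0 in CSF3R-first (n = 3) to 569 ± 31.9 in CEBPA-first (n = 4), and was called in both groups against CSF3R-only (log2 fold change 0.66 ± 0.09 (SE), edgeR adjusted p = 2.64e-05, and log2 fold change 0.42 ± 0.10 (SE), edgeR adjusted p = 0.00506). Rps3a1, added to this group after the table had been seen, changed by 0.51 and 0.31. Fau, a fusion of a ubiquitin-like protein with S30, changed by 0.16 and 0.23, both called. Rpl36al and Rps27l rose by 1.13 and 0.62 in CEBPA-first. The tissue-restricted paralog Rpl3l, known from muscle, went the other way on a low level, from 1.28 ± 0.307 to 0.298 ± 0.0201 CPM (log2 fold change -2.09 ± 0.23 (SE), edgeR adjusted p = 2.71e-06), and Rpl10l had no count in any sample. Of the 11 tested genes of this list without Rps3a1, 9 rose and 1 fell in CEBPA-first, and 7 rose and 1 fell in CSF3R-first.

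The group means followed CSF3R-only, CSF3R-first, CEBPA-first in 70 of the 76 genes, against 37.1% of all genes tested, and in 44 genes all 11 samples fell in that order of groups without overlap, against 14.2% of all genes. Within that order CSF3R-first stood nearer to CEBPA-first. On a scale from 0 at the CSF3R-only mean to 1 at the CEBPA-first mean of log2 CPM, its median position over the 72 genes called in CEBPA-first was 0.732 (quartiles 0.690 and 0.783), and all 72 were above 0.5. Over all 5561 genes called higher in CEBPA-first the median was 0.492, and over the 3618 of them with a change as large as the ribosomal protein genes' it was 0.491. The measure is built from the same CSF3R-only and CEBPA-first samples that made the calls and was not tested. Single CSF3R-first replicates gave medians of 0.577, 0.735 and 0.850 for A, B and C, so the position varied between replicates by more than its quartiles over genes.

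**Figure D4:**
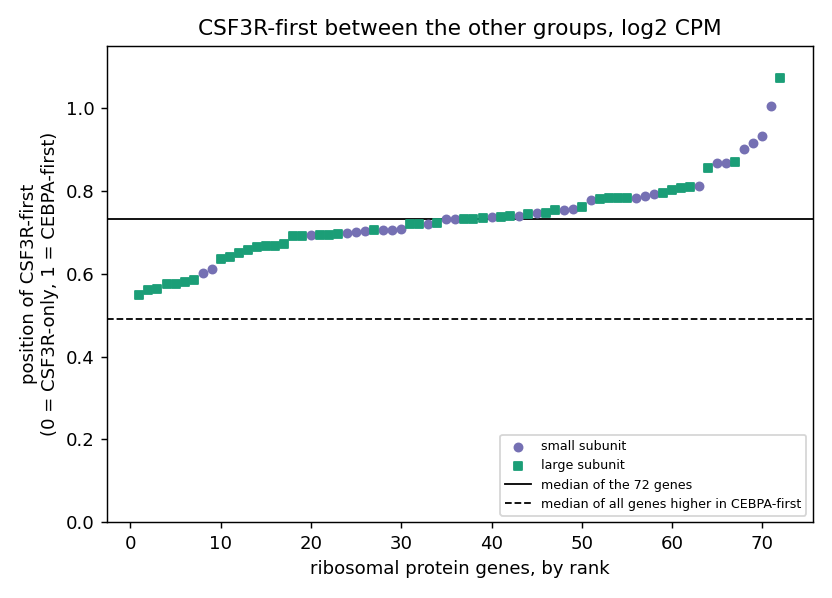
Position of the CSF3R-first mean (vertical axis, log2 CPM scale, 0 = CSF3R-only mean, 1 = CEBPA-first mean) for the 72 ribosomal protein genes called in CEBPA-first against CSF3R-only, in rank order on the horizontal axis and marked by subunit. The solid line is their median of 0.732, and the dashed line is the median of 0.492 over all genes called higher in CEBPA-first.

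By gene, the position was lowest in Rpl6 (0.549), Rpl3 (0.561) and Rpl4 (0.564), for which CSF3R-first was near the middle. It was highest in Rpl41 (1.07), Rps19 (1.01), Rps16 (0.933) and Rps27a (0.917), for which CSF3R-first was level with CEBPA-first. The median was 0.743 over 28 small and 0.720 over 44 large subunit genes.

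The 76 genes also moved together within groups. CSF3R-only replicate A was the lowest of its 4 samples in 74 of the 76 genes, while it was lowest in 35.5% of all genes tested, and replicate B was the highest in 63. CEBPA-first replicate D was the highest of 4 in 72 genes, against 25.5% of all genes. In CSF3R-first, replicate A was the lowest of 3 in 61 and replicate C the highest in 57. CSF3R-only replicates A and B, the extremes of their group, had 49499527 and 53353624 counts, and CEBPA-first replicate D, with 72268346, was the deepest library. The 76 genes are therefore not independent of each other, and the median changes above rest on 3 or 4 samples a group.

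Genes that serve ribosomes in other ways were followed by lists chosen for their function. Beside the list counts from here on, 35.4% of all genes were called higher and 36.6% lower in CEBPA-first against CSF3R-only. The shares were 21.6% and 21.1% in CSF3R-first against CSF3R-only, and 24% and 24.3% in CEBPA-first against CSF3R-first. Among 17 tested chaperones of ribosomal proteins and late assembly factors, 16 rose in CEBPA-first and 14 in CSF3R-first, both against CSF3R-only, and 15 were higher in CEBPA-first than in CSF3R-first, with median log2 fold changes of 1.01, 0.41 and 0.46. Beside the 11 of 76 called in the last comparison, with a median of 0.15, more of the assembly factors were called between the orders of acquisition. The difference between the lists was not tested. The largest changes were in Grwd1, the chaperone of Rpl3, at 26.1 ± 3.39 CPM in CSF3R-only (SD), 40.4 ± 8.88 in CSF3R-first and 66.8 ± 5.63 in CEBPA-first (log2 fold change 1.35 ± 0.13 (SE), edgeR adjusted p = 1.02e-06), and Tsr1, a 40S assembly factor, at 32.3 ± 3.27, 50.04 ± 12.1 and 82.1 ± 6.89 CPM (log2 fold change 1.35 ± 0.13 (SE), edgeR adjusted p = 9.84e-07). Heatr3, which helps bring Rpl5 to the nucleus, changed by 1.09, and Tsr2, the chaperone of Rps26, by 1.21. Sbds, mutated in Shwachman-Diamond syndrome, was not called in CEBPA-first (log2 fold change 0.08 ± 0.06 (SE), edgeR adjusted p = 0.214).

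Elongation factors and other mRNAs with a TOP motif rose in 20 of 23 genes in CEBPA-first and 16 of 23 in CSF3R-first, by medians of 0.56 and 0.30, and 14 were higher in CEBPA-first than in CSF3R-first. Npm1, a nucleolar chaperone, rose from 403 ± 65.1 through 655 ± 107 to 967 ± 53.8 CPM (log2 fold change 1.26 ± 0.12 (SE), edgeR adjusted p = 1.05e-06), and Hnrnpa1, a splicing factor, by 1.18. Eef1a1, the elongation factor that brings transfer RNAs, changed by only 0.24 in CEBPA-first (edgeR adjusted p = 0.00867). Pfdn5, a subunit of prefoldin, and Vim, an intermediate filament, fell by 0.43 and 0.39 on the log2 scale. Tpt1 was not called (log2 fold change 0.03 ± 0.07 (SE), edgeR adjusted p = 0.661).

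Of 18 tested genes of the mTOR pathway and TOP mRNA control, 11 rose and 1 fell in CEBPA-first, and 7 rose in CSF3R-first, where none was called lower. Of all genes, 35.4% and 21.6% were called higher in these comparisons. Larp4, which binds poly(A) tails, and Pdcd4, an inhibitor of the helicase eIF4A, changed most in CEBPA-first, by 1.06 and 1.03. Larp1 went from 284 ± 24.0 through 395 ± 56.2 to 506 ± 37.1 CPM (log2 fold change 0.83 ± 0.09 (SE), edgeR adjusted p = 4.28e-06). The S6 kinase genes moved in opposite directions, Rps6kb1 by 0.36 and Rps6kb2 by -0.34, both called.

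In the list of RNA polymerase I subunits, its factors and the Myc network, 11 of 15 rose in CEBPA-first and 8 in CSF3R-first, where 2 fell. The ranges of the list's summed level overlapped, at 1614 to 1747 CPM in CSF3R-only and 1625 to 1689.9 CPM in CEBPA-first. Mxd1, which fell, held 892 CPM of this sum in CSF3R-only and 254 CPM in CEBPA-first. The sum therefore does not stand for the 11 genes that rose. Myc was at 158 ± 27.7 CPM in CSF3R-only (SD), 283 ± 45.1 in CSF3R-first and 465 ± 16.3 in CEBPA-first (log2 fold change 1.56 ± 0.13 (SE), edgeR adjusted p = 2.25e-07 in CEBPA-first, and log2 fold change 0.84 ± 0.13 (SE), edgeR adjusted p = 0.000444 in CSF3R-first). Polr1b, a core subunit of RNA polymerase I, rose by 1.28 and 0.55. Mxd1, which opposes Myc for their shared partner Max, fell from 892 ± 114 to 254 ± 32.8 CPM (log2 fold change -1.81 ± 0.13 (SE), edgeR adjusted p = 7.22e-08), and Max itself was not called (log2 fold change 0.02 ± 0.08 (SE), edgeR adjusted p = 0.805).

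**Figure D5:**
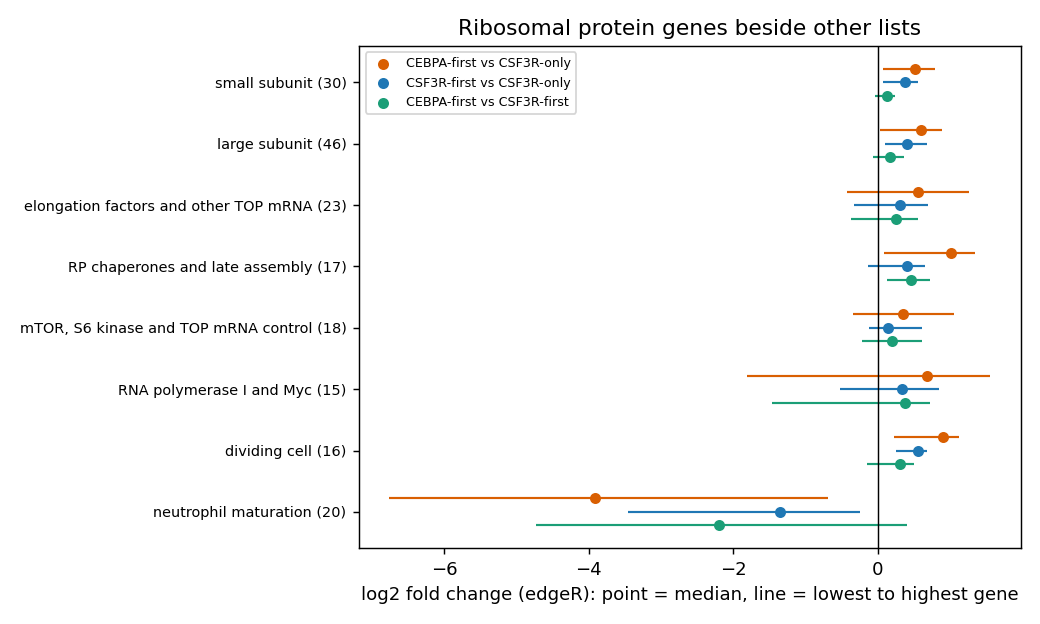
Log2 fold change (horizontal axis, edgeR) in 3 comparisons for the ribosomal protein genes of each subunit, 4 lists of genes that serve ribosomes and 2 marker lists (vertical axis, with the number of genes tested), as the median (point) and the lowest to highest gene (line). The ribosomal protein genes form narrow bands, above 0 against CSF3R-only and from -0.06 to 0.36 between the orders of acquisition, the assembly factors reach a median of 1.01 in CEBPA-first against CSF3R-only, and the neutrophil medians lie below 0 in all 3.

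Stem and progenitor markers did not move in 1 direction beside the ribosomal protein genes. In CEBPA-first 9 of 14 rose, among them Mecom by 6.47 and Hlf by 2.26, and 4 fell, among them Ly6a by 2.67 and Cd34 by 2.31 on the log2 scale, and in CSF3R-first 7 rose and 4 fell. Monocyte and macrophage markers fell in 13 of 14 in CEBPA-first and 12 of 14 in CSF3R-first, and megakaryocyte markers in 10 of 10 in both. Mast cell and basophil markers, 10 genes of which none was at 0 in all samples, summed to between 2138 and 3121 CPM in the CSF3R-only samples, 1331 and 1622 in CSF3R-first and 1406 and 1835 in CEBPA-first. Of these 5 fell and 2 rose in CEBPA-first, and 8 fell and none rose in CSF3R-first. Mki67, a marker of dividing cells, was at 317 ± 14.1, 412 ± 22.4 and 370.1 ± 10.4 CPM, so that its CEBPA-first mean was below the CSF3R-first mean, whereas the replication factor Mcm6 was at 294 ± 34.7, 451 ± 48.2 and 639.8 ± 43.4 CPM. The part of these cell types in the ribosomal protein result was not tested.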

How the data were processed

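The series measured mRNA by RNA-seq in 11 samples of transduced, sorted mouse marrow cells. Per the study's methods, libraries were made from low-input RNA with a SMARTer universal kit and sequenced as single reads of 100 bases, and reads were trimmed with Trimmomatic. The submitters' processing notes name STAR, DESeq2 and the genome build mm10. The counting tool, the annotation behind it and the strand setting are not given in the sources used here. The authors deposited 1 table of raw gene counts, 51912 genes by 11 samples, which is the only unit used. The table's columns were matched to samples by their labels, and no column was left unused.

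Genes were named and located with the GENCODE annotation of GRCm38, in which 193 identifiers had no symbol. Counts were filtered with edgeR's default filter (15703 genes kept), scaled by TMM and fitted in 1 quasi-likelihood model of 3 groups, with p-values adjusted over all genes tested by Benjamini-Hochberg (edgeR 4.0.16, limma 3.58.1, R 4.3.3). A gene was called at an adjusted p under 0.05. CPM are counts scaled by TMM to a common library size, and a prior count of 2 was added for log2 CPM. Shared sequence was found by looking up every 100-base window of a gene's main transcript in the transcripts of all other genes. Promoter windows came from RefSeq. In counts simulated for CEBPA-first against CSF3R-only, the test recovered 93% of 100 genes changed by 0.5 and 100% of 100 changed by 1 on the log2 scale.

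Libraries held 47905747 to 72268346 counts. Named genes were the 5 highest and 5 lowest by fold change in each comparison, the genes not called in the first, the 3 highest and lowest per length, 4 lists of ribosomal proteins and a few fixed names, and outside the family the 2 largest called changes in each direction of a list, with others added as examples after their values were seen. Values of some single genes under this rule are not reported here, and those genes are counted in the totals. The ribosomal protein genes and all lists were chosen with earlier results of these data known. Alternatives covered the scaling, the filter, DESeq2 1.42.0, a replicate block, each sample left out, and members with little shared sequence.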

Additional observations from a re-analysis of the deposited data

Results flagged for a closer look

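Among 92 groups of 4 samples, from 43 named ribosomal protein genes and 3 summary measures in CSF3R-only and in CEBPA-first, 6 held a sample that stood far from the other 3, where chance gives about 1 in 20, here 4.6. CEBPA-first replicate D was the sample in 5 of the 6. Its Rpl12 level was 190.2 CPM, with the other replicates at 170.4 to 172 CPM, and its Rpl18 level was 228 CPM against 212 to 214 CPM. Rpl31 was at 92.2 CPM against 81.8 to 82.3 CPM, Rpl35 at 72.6 CPM against 65.8 to 66.2 CPM, and Rpl38 at 55.3 CPM against 46.7 to 47.6 CPM. In CSF3R-only, replicate A had 20.4 CPM of Rps28, with the others at 23.1 to 23.6 CPM. These samples also stood lowest or highest in most other ribosomal protein genes of their groups. The count of genes higher in CEBPA-first than in CSF3R-only was 72 of 76 without CEBPA-first replicate D and 72 of 76 without CSF3R-only replicate A.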

How the results depend on the processing

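The counts of ribosomal protein genes higher than in CSF3R-only, 72 in CEBPA-first and 69 in CSF3R-first, varied little. They were 72 and 69 with RLE or upper quartile scaling, with TMM computed without the 76 genes and with pseudogene counts added, 72 and 70 with DESeq2 or no filter, and 75 and 74 with libraries scaled by size alone. The last moved the median of all genes from -0.00446 to 0.129 in CEBPA-first and from -0.0218 to 0.0634 in CSF3R-first, and the median of the 76 to 0.69 and 0.48. Leaving out single samples, the counts ranged from 72 to 72 and from 66 to 73. The count of 11 in CEBPA-first against CSF3R-first ranged from 2 to 21 with single samples left out and was 7 with at least 10 counts in every sample. With a log2 fold change beyond 1 also required, the count was 0 in each comparison, and 1 in CEBPA-first against CSF3R-only with libraries scaled by size alone. Restricted to genes with a mean of 1000 or more counts, also chosen after seeing the data, the counts were 70, 67 and 10 of 73. An alternative chosen after seeing the data kept 11 genes with under 10% shared sequence. Of these 11 and 11 were higher than in CSF3R-only and 1 in CEBPA-first against CSF3R-first, and they held 0.213% (CSF3R-only), 0.290% (CSF3R-first) and 0.337% (CEBPA-first) of all counts. The small minus large subunit difference in CEBPA-first was 0.483 with a prior count of 0.5 against 0.479. Over the genes with little shared sequence it was -0.375, beside -0.334 for CSF3R-only and -0.344 for CSF3R-first, and CEBPA-first no longer stood apart from the other samples. The planned search of the genome for shared sequence was not run.

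The labels do not say that replicate letters mark pairs. Deviations of same-letter samples correlated by -0.107 to 0.362 (mean 0.156), over 0.1 in 7 of 10 pairs, and those of different-letter samples by -0.341 to 0.384 (mean -0.0527), over 0.1 in 5 of 30. Same-letter samples were thus more alike on average, but not in every pair, and the letters were not used as a block in the main values. With a replicate block the counts were 72, 69 and 13.

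Over the 43 named ribosomal protein genes, 21 values gained and 23 lost a call under an alternative and 2662 did neither. Rpl7a, Rpl10a, Rpl13, Rpl36a and Rps4x, which are outside these 43, lost further calls, as given above. Changes of sign among the 43 touched log2 fold changes of genes in comparisons where they were not called. Rpl23a in CEBPA-first against CSF3R-first was 0.13, and -0.017 to 0.37 with 1 sample left out. Rpl24 in CEBPA-first against CSF3R-first was -0.064, and -0.29 to 0.19 with 1 sample left out. Rpl24 in CEBPA-first against CSF3R-only was 0.032, and -0.17 to 0.22 with 1 sample left out. Rpl24 in CSF3R-first against CSF3R-only was 0.096, and -0.14 to 0.32 with 1 sample left out. Rpl41 in CEBPA-first against CSF3R-first was -0.023, and 0.027 by size alone, 0.0046 with no filter, -0.079 to 0.037 with 1 sample left out. Rps19 in CEBPA-first against CSF3R-first was -0.001, and 0.000374 by RLE, 0.048 by size alone, 0.0018 by TMM without the 76 genes, 0.0071 by DESeq2, 0.026 with no filter, -0.038 to 0.037 with 1 sample left out. Rps27 in CEBPA-first against CSF3R-first was -0.0084, and 0.043 by size alone, 0.019 with no filter, -0.074 to 0.032 with 1 sample left out. Rps9 in CEBPA-first against CSF3R-first was -0.04, and 0.011 by size alone. Signs also changed for genes outside the 43 in CEBPA-first against CSF3R-first, where they were not called. Among these were Rpl37a (0.050, down to -0.0078), Rps12 (0.050, down to -0.00074) and Rps16 (0.029, down to -0.016). The cause of these changes was not tested.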
